A study of Mus musculus with 15 samples.

Results

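Ribosomal protein genes encode the proteins that, with ribosomal RNA, build the large and small subunits of the cytosolic ribosome. They were taken as all gene symbols made of Rpl or Rps and a number (with a, l or x after it where present), together with Rplp0, Rplp1, Rplp2 and Rpsa, whatever status the authors gave them. The rule found 80 genes among the 23420 rows of each comparison, 49 of the large and 31 of the small subunit, and used no measured value. Each ribosome holds nearly every one of these proteins once, the acidic stalk proteins Rplp1 and Rplp2 more than once. Their mRNAs are known to start with a run of pyrimidines, the 5′ terminal oligopyrimidine (TOP) tract, through which the kinase complex mTORC1 controls their translation. In the kidney, as in other organs, they rank among the most abundant mRNAs of nearly every cell.

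The series compared kidneys of C57BL/6 mice homozygous for a floxed allele of Esrrg, the gene of the orphan nuclear receptor ERRγ, with or without a Sim1-Cre transgene. The knockout groups carried Cre (ERRg fl/fl;Sim1-Cre) and comprised 3 males at 3 months, 3 males at 3 weeks and 2 females at 3 weeks. The control groups were Cre-negative littermates (ERRg fl/fl) and comprised 3 males at 3 months, 2 males at 3 weeks and 2 females at 3 weeks. All groups shared the floxed alleles. The labels name the Sim1 driver but not the kidney cells it reaches or the exon that is floxed, and the whole kidney was the source of polyadenylated RNA.

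The values analysed were the authors' 3 deposited tables, one per sex and age, which give each gene a mean normalized count over all libraries of the table, a log2 fold change, the standard error (SE) of that fold change (written after ± throughout), and an adjusted p-value. They hold no value per library, so no spread between kidneys can be shown beside a gene, and what follows rests on the authors' fold changes and SEs. The mean counts summed to 18805533 in 3-month males, 47478811 in 3-week males and 33861809 in 3-week females. The steps of the lowest means fitted 5, 4 and 4 libraries, and their fold changes put 2 on the knockout side in each table if the ratio is read as below; turned round, the 3-month table would hold 3 knockout libraries. A gene was called higher or lower when the authors' adjusted p was under 0.05. The status Outlier marks genes that the authors gave a fold change but no p-value, and the status Low marks means under about 10. The source names of the 3-month knockout samples say female while their titles and sex tags say male. Xist, the RNA made by the inactive X chromosome, had a mean count of 11.9 in the authors' deposited table of 3-month males, against 17.5 in 3-week males and 23848 in 3-week females.

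The headers do not name the direction of the ratio, and it was read here as knockout over control. Esrrg itself had a log2 fold change of −0.87 ± 0.57 with the status Outlier in the authors' deposited table of 3-month males. In 3-week males it was 0.82 ± 0.20 (the authors' deposited table, adjusted p = 0.000613), and in 3-week females 1.04 ± 0.17 (the authors' deposited table, adjusted p = 1.70e-08). On their face the values at 3 weeks go against that reading, but counts over the whole gene can include exons outside the deleted part, so these values test neither the deletion nor how samples were labelled. The reading rests on the series title, which ties ERRγ to reabsorption, and on markers of proximal tubule, thick ascending limb and distal convoluted tubule, whose median log2 fold changes were negative in all 3 tables. If the ratio ran the other way in a table, every higher and lower given for the libraries labelled knockout would swap. As a check of the tissue, the 10 proximal tubule markers had median mean counts of 19465 in the authors' deposited table of 3-month males, 35681 in that of 3-week males and 28401 in that of 3-week females.

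The promoters of some members whose values are described below are shown first. A start-site tract that the selection by symbol did not use was more frequent among the members than among all promoters. RefSeq promoter windows of GRCm38.p6, covering 250 bases before to 50 after an annotated start, were matched by symbol to 60 of the 80 genes and gave 72 windows. The TOP-like pyrimidine tract was searched as a C followed by at least 5 pyrimidines beginning within 10 bases of the start, on the gene's strand. It was found in 34 of 72 windows, 47.2%, against 19.2% of all 32851 promoter windows and 19.6% of windows of other genes with a mean count of at least 1000 in 3-week males. Printed below are 60 bases before to 20 bases after the start, 5′ to 3′ on the gene's strand, with the tract in capitals. Rpl12, Rps12 and Rpl39 are shown for their high values at 3 months, Rpl41, Rpl15 and Rpl27 because they were called higher there, and Rpl3l because it was called lower.
Rpl12 (chr2:32961652-32961731, plus strand): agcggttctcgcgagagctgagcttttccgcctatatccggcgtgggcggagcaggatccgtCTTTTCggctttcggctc
Rps12 (chr10:23787190-23787269, minus strand): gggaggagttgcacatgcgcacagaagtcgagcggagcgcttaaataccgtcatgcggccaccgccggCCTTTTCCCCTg
Rpl39 (chrX:37085203-37085282, minus strand): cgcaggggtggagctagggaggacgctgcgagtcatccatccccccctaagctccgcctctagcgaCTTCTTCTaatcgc
Rpl15 (chr14:18270967-18271046, minus strand): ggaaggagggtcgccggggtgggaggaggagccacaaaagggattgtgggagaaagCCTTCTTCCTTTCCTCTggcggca
Rpl41 (chr10:128549149-128549228, minus strand): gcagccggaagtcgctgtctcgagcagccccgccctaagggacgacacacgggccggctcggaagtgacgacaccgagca
Rpl27 (chr11:101442185-101442264, plus strand): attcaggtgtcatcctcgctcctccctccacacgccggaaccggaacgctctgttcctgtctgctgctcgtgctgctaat
Rpl3l (chr17:24727766-24727845, plus strand): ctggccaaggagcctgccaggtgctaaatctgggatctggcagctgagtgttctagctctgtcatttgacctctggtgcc
The windows of Rpl41, Rpl27 and Rpl3l held no tract at these starts by this definition. A match, or the lack of one, says only which letters stand in the window.

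Because the receptor deleted in these kidneys belongs to the ERR family, its half-site AAGGTCA was searched on both strands of the same windows. It was present in 7 of 72 windows, 9.72%, against 4.72% of all promoters and 2.98% of those of other abundant genes, but 3 of the 7 were overlapping windows of Rpl35a that hold the same site. By gene it was present in 5 of 60 members, 8.33%, against 5.38% of all genes with a window and 3.69% of other abundant genes. The 4 of these genes that were detected are printed with the half-site, or its reverse complement TGACCTT, in capitals.
Rps3 (chr7:99483897-99483933, minus strand): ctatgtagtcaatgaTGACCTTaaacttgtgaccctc
Rpl35a (chr16:33056375-33056411, plus strand): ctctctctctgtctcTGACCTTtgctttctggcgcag
Rpl24 (chr16:55966025-55966056, plus strand): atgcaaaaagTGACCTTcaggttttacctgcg
Rpl3l (chr17:24732435-24732463, plus strand): gtactgcAAGGTCAttcgggtcattgtcc
The site of Rpl3l belongs to an annotated start downstream of the one whose window is printed above. The fifth gene, Rpl10l, was listed at 0 in all 3 tables. The other motifs searched on both strands were the ETS element CCGGAAG, present in 36.1% of members' windows against 8.86% of all and 17.6% of those of other abundant genes, and the YY1 element AAGATGGC, present in 9.72% against 2.75% and 4.58%. TATAAA was present in 8.33% of members' windows, below the 13.6% of all and above the 7.10% of those of other abundant genes. These motifs and the tract can share letters, and one window can hold several. The median log2 fold change in 3-month males was 1.26 over 32 members with a tract and 1.10 over 25 matched members without one, and the corresponding medians were 0.17 and 0.10 in 3-week males and −0.01 and 0.09 in 3-week females.

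**Figure D1:**
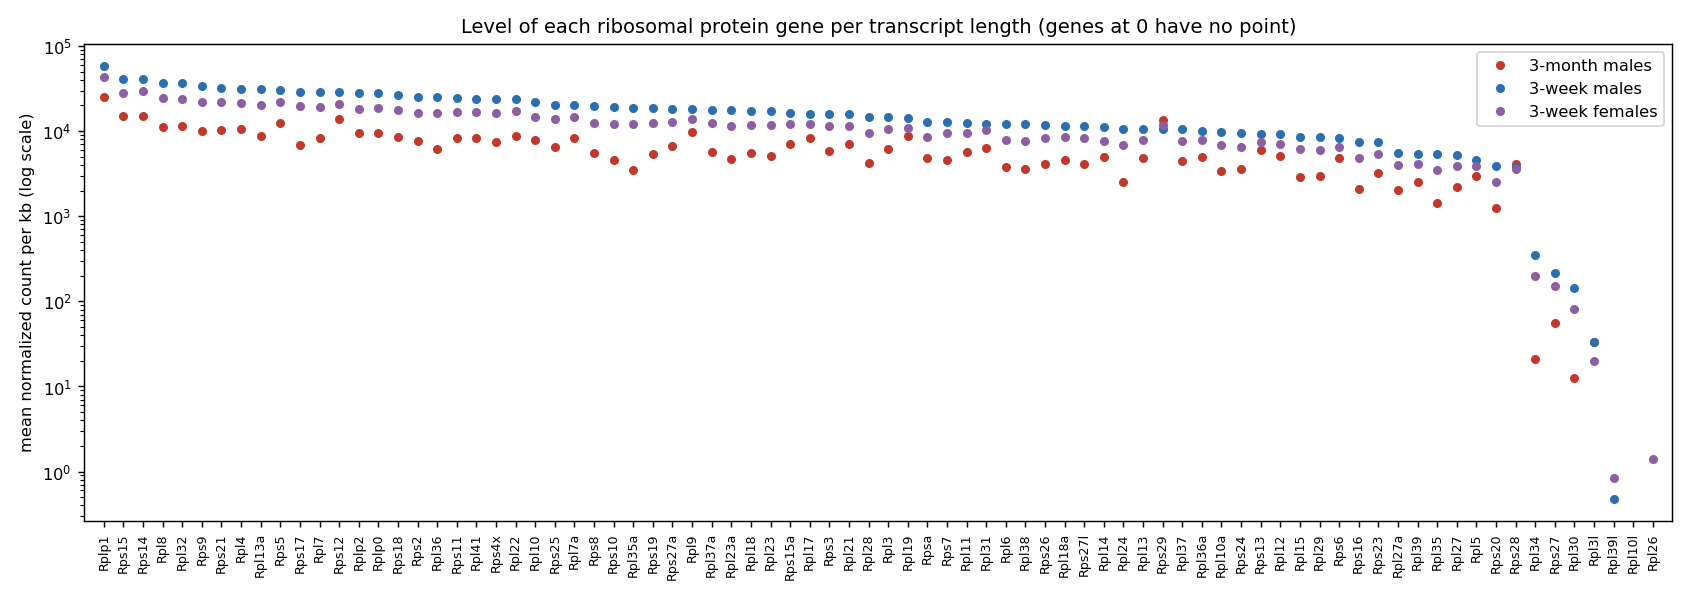
Mean normalized count per kilobase of each ribosomal protein gene (log axis), ordered by the level in 3-week males, with 1 point per table. In 3-month males 73 genes had mean counts of at least 1000, and Rpl30, Rps27, Rpl34, Rpl3l, Rpl39l, Rpl10l and Rpl26 lay far below them.

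As a level, most members were abundant and a few lay far below them. In the authors' deposited table of 3-month males 73 of the 80 had a mean count of at least 1000, and the counts were 73 in 3-week males and 72 in 3-week females. Per kilobase of the shortest principal transcript in GENCODE M21, the median level of these abundant members was 5746 normalized counts in 3-month males, 15973 in 3-week males and 11673 in 3-week females. The scale is that of each table, which were normalized separately, so levels are set beside each other only within a table. Rplp1, an acidic stalk protein, was the highest in each, at 25472, 58779 and 43523 per kilobase. The lowest of the abundant members per kilobase were Rps20 with 1233 in 3-month males, Rps28 with 3794 in 3-week males and Rps20 with 2542 in 3-week females. The place of Rps20 depends on its annotated length of 3706 bases. Its mean counts before that division were 4570 in 3-month males and 9420 in 3-week females. Together the members held 1.98%, 2.16% and 2.10% of the summed mean counts in 3-month males, 3-week males and 3-week females.

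Rpl26, Rpl30, Rps27 and Rpl34 encode core ribosomal proteins, yet stood far below the rest. Rpl26 was listed at 0 in the authors' deposited tables of both male comparisons and at a mean count of 0.73 in that of 3-week females. Rpl34 had mean counts of 10.2, 169 and 95.8 in the authors' deposited tables of 3-month males, 3-week males and 3-week females. Rps27 had mean counts of 19.3, 74.5 and 52.3, and Rpl30 of 7.17, 82.7 and 46.3, in the same 3 authors' deposited tables. A working ribosome is known to need each of these proteins. Ribosomal protein genes have many processed pseudogenes: GENCODE M21 names 291 of them for 59 of the 80 genes, among them 6 for Rpl26, 9 for Rpl30, 2 for Rpl34 and 1 for Rps27, where the abundant members had a median of 2 and up to 24. The sources used here do not say how reads shared with near-identical copies were counted, so levels of members with such copies are uncertain, and the part of the copies in these low counts was not tested. Protein-coding genes also overlap 18 of the members, and snoRNA genes lie within 29.

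**Figure D2:**
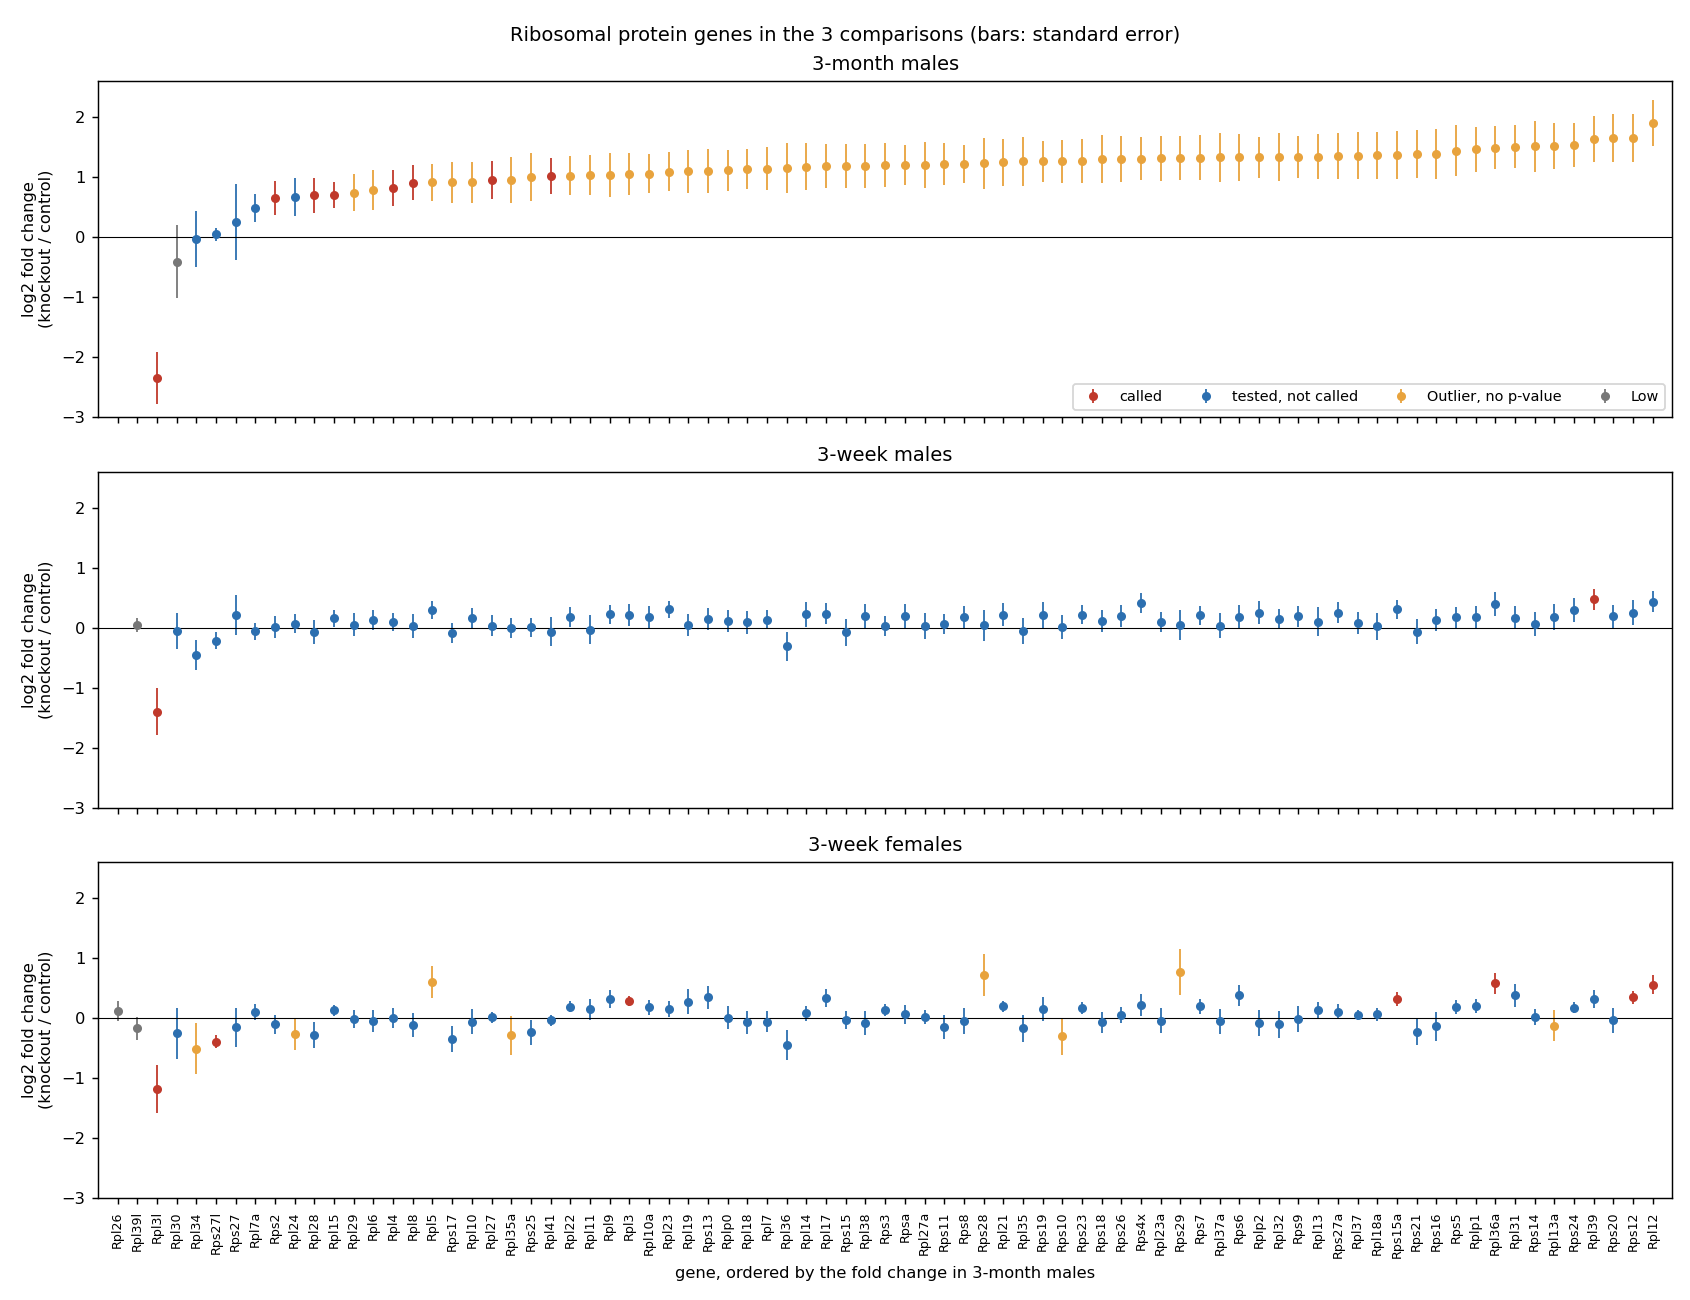
Log2 fold change (knockout over control) with its SE for every ribosomal protein gene, with 1 panel per table and genes ordered by the value in 3-month males. Nearly all points of 3-month males lie between 0.5 and 2 and most have the status Outlier, while those of 3-week males lie mostly above 0 with a median of 0.13 and those of 3-week females fall on both sides of 0 with a median of 0.02.

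At 3 months the fold changes of ribosomal protein genes were positive with few exceptions, and the tested members called were mostly higher in the kidneys labelled knockout. Of the 13 members that the authors tested, 7 were called higher (Rpl41, Rpl15, Rpl8, Rpl27, Rpl4, Rps2 and Rpl28), where 29.8% of all 12828 tested genes were, and 1, Rpl3l, was called lower, where 27.8% of tested genes were. All 73 members with a mean count of at least 100 had a positive log2 fold change in the authors' deposited table of 3-month males, between 0.05 and 1.90, and 57 were above 1. The median over the 77 members with a fold change was 1.20, a 2.30-fold ratio, against 0.01 over all tested genes and −0.38 over the other genes with a mean count of at least 1000. Large-subunit members had a median of 1.10 and small-subunit members of 1.30. In whole kidney more cells of a type and more RNA of a gene per cell cannot be told apart.

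Most of these values carry no p-value from the authors. The status Outlier held 63 of the 73 abundant members, 86.3%, where it held 15.5% of all genes with a mean count of at least 1000 and 8.29% of all genes with a fold change. The 63 had log2 fold changes between 0.74 and 1.90, with a median of 1.26 and not one below 0. Over all 1513 Outlier genes the median was −0.18 and 724 were positive. When Outlier genes were tested too, with a normal p from the authors' fold change and SE and Benjamini-Hochberg adjustment over all genes, 70 of 76 members were called higher, where 30.4% of all genes were, and 1 lower, where 28.7% were. The 63 adjusted p-values of Outlier members by that normal test lay between 3.95e-06 and 0.0325. Rpl24, Rpl7a, Rps27, Rpl34 and Rps27l were not called. The authors gave no p-value for the Outlier genes, and the sources used here do not state the rule behind the status. The normal test reused the same fold changes and SEs. Without values per library it cannot show whether a single library carried the members' values, so its calls are weaker than those of the authors.

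**Figure D3:**
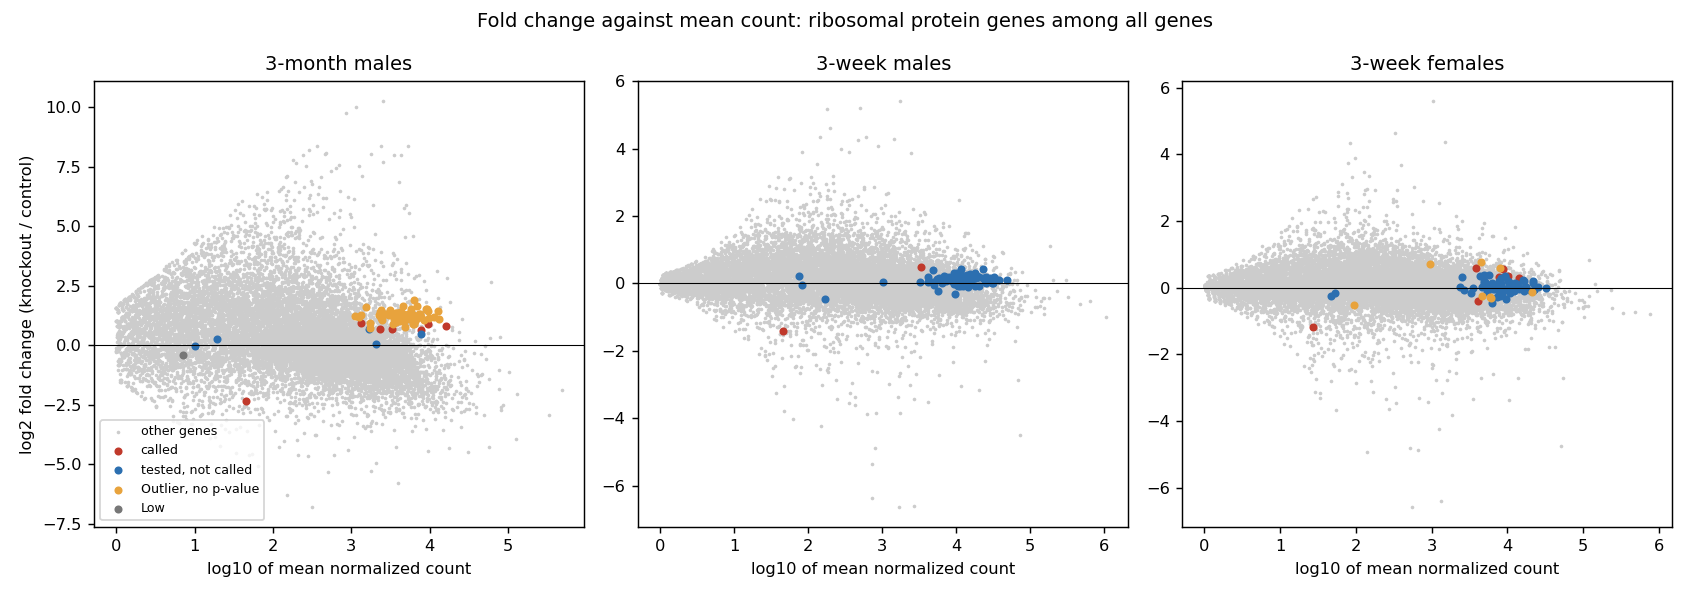
Log2 fold change (knockout over control) against the log10 of the mean normalized count for all genes with a mean above 1 (grey) and the ribosomal protein genes (coloured by status), with 1 panel per table. In 3-month males the members form a compact cloud around 1.20 among abundant genes whose median is −0.38.

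The 4 members of the P stalk, the arm of the large subunit that recruits and stimulates the translation factors, are Rplp0, Rplp1, Rplp2 and Rpl12. Rpl12, which anchors the base of the stalk, had the highest log2 fold change of any member in the authors' deposited table of 3-month males, 1.90 ± 0.39 (Outlier), a 3.73-fold ratio. It was 0.43 ± 0.18 in that of 3-week males (authors' deposited table, adjusted p = 0.0792) and 0.56 ± 0.16 in that of 3-week females (adjusted p = 0.00571), where it was called. Rplp0, the stalk's scaffold, had 1.11 ± 0.34, 0.11 ± 0.18 and 0.01 ± 0.20 in the authors' deposited tables of 3-month males, 3-week males and 3-week females. The same tables of the authors gave Rplp1 1.46 ± 0.37, 0.17 ± 0.18 and 0.21 ± 0.12, and Rplp2 1.33 ± 0.35, 0.25 ± 0.19 and −0.08 ± 0.21. All 4 had the status Outlier at 3 months.

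After Rpl12, the highest values at 3 months were those of Rps12, Rps20, Rpl39, Rps24 and Rpl13a, all with the status Outlier. Rps12, a protein of the small subunit's beak, had 1.65 ± 0.40 in the authors' deposited table of 3-month males and Rps20 1.65 ± 0.40. Rpl39, a small protein that lines the exit tunnel through which the new chain leaves, had 1.63 ± 0.38 there. Rps24 had 1.53 ± 0.37 and Rpl13a, known also for a role in translational silencing outside the ribosome, 1.52 ± 0.38 in the same authors' deposited table. The ratios of Rpl12, Rps12 and Rpl39, whose tracts are printed above, were 3.73-fold, 3.14-fold and 3.09-fold.

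Members with a p-value at 3 months sat at the lower end of the group. Rpl41, the shortest protein of the ribosome, had 1.02 ± 0.30 in the authors' deposited table (adjusted p = 0.00177), which is 2.03-fold. Rpl27 had 0.95 ± 0.31 (authors' deposited table, adjusted p = 0.00509) and Rpl8, a protein near the peptidyl transferase centre, 0.91 ± 0.30 (adjusted p = 0.00470). Rpl4, which reaches into the exit tunnel, had 0.82 ± 0.30 in the authors' deposited table (adjusted p = 0.0116), and Rpl15 had 0.71 ± 0.21 (adjusted p = 0.00240). Rpl28 and Rps2, a protein at the entry of the mRNA channel, had 0.70 ± 0.30 and 0.65 ± 0.28 in the authors' deposited table, with adjusted p of 0.0333 and 0.0334. Rpl24 with 0.67 ± 0.31 (authors' deposited table, adjusted p = 0.0543) and Rpl7a with 0.49 ± 0.23 (adjusted p = 0.0601) were positive and not called. The 3 scarce members Rps27, Rpl34 and Rpl30 had 0.25 ± 0.63, −0.03 ± 0.47 and −0.41 ± 0.61 in that authors' deposited table. The 95% interval of Rps27, from −0.98 to 1.48, included the members' median of 1.20, while those of Rpl34, from −0.95 to 0.88, and Rpl30, from −1.61 to 0.78, excluded it and included 0.

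By position in the ribosome the medians ran from 0.91 to 1.39 at 3 months, and nearly all values in these groups lacked a p-value. The median log2 fold change in 3-month males was 1.39 over the 4 P-stalk genes, 1.26 over 7 genes of the exit tunnel rim, 1.27 over 9 of the mRNA entry and decoding region and 0.91 over 5 near the peptidyl transferase centre. Rpl5 and Rpl11, which with 5S ribosomal RNA form the particle that binds Mdm2 when ribosome assembly is disturbed, had 0.91 ± 0.32 and 1.03 ± 0.33 (Outlier) in the authors' deposited table of 3-month males. Their values were 0.30 ± 0.15 and −0.03 ± 0.24 in that of 3-week males and 0.60 ± 0.26 (Outlier) and 0.15 ± 0.17 in that of 3-week females, with no call. The 17 detected genes whose human counterparts are mutated in Diamond-Blackfan anaemia had a median of 1.23 at 3 months, and Rps19, the most often affected of them in humans, had 1.26 ± 0.34 (Outlier) in the authors' deposited table.

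Several members have well-known tasks beyond their place in the subunit. Rps6, the substrate of S6 kinase used as a readout of mTORC1, had 1.33 ± 0.40 (Outlier), 0.18 ± 0.19 and 0.38 ± 0.18 in the authors' deposited tables of 3-month males, 3-week males and 3-week females. Rpsa, also known as the laminin receptor, had 1.20 ± 0.33 (Outlier), 0.19 ± 0.20 and 0.06 ± 0.15 there, and Rps27a, made as a fusion with ubiquitin, 1.35 ± 0.38 (Outlier), 0.25 ± 0.18 and 0.11 ± 0.13. Rpl38, linked in mice to translation of Hox mRNAs, had 1.19 ± 0.37 (Outlier), 0.20 ± 0.19 and −0.08 ± 0.21 in the same authors' deposited tables. At 3 weeks not one of these 4 was called.

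The 4 X-linked members are Rpl10, Rpl36a, Rpl39 and Rps4x. Their median log2 fold change was 1.40 in 3-month males, 0.40 in 3-week males and 0.27 in 3-week females, against 1.20, 0.13 and 0.02 over all members. Rpl36a had 1.49 ± 0.36 (Outlier) at 3 months, 0.39 ± 0.19 in 3-week males and 0.58 ± 0.17 in 3-week females in the authors' deposited tables, and was called in the females (adjusted p = 0.00745). Rps4x had 1.31 ± 0.36 (Outlier), 0.41 ± 0.17 and 0.22 ± 0.18 there, the second with an adjusted p of 0.0639 in the authors' deposited table. Rpl10, one of the last proteins to join the large subunit, had 0.91 ± 0.35 (Outlier), 0.16 ± 0.16 and −0.06 ± 0.20 in the same authors' deposited tables. With 4 genes these medians describe the genes and single out no chromosome.

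At 3 weeks few members were called. In 3-week males 1 of 77 tested members was called higher, where 8.81% of all tested genes were, and 1 lower, where 8.52% were. The gene called higher was Rpl39, with 0.48 ± 0.17 in the authors' deposited table (adjusted p = 0.0373), 1.39-fold. Of 78 members with a fold change 64 were positive, and their median was 0.13, against −0.01 over all tested genes and −0.05 over the other genes with a mean count of at least 1000, of which 41.8% were positive. The 95% intervals of all 73 members not called with a mean count of at least 100 lay between −0.95 and 0.79. A deposited value of 2-fold in any of them would fall outside its interval. The deposited values were pulled toward 0 (see How the data were processed), so these limits hold on that scale only. Rpl36, with −0.31 ± 0.24, and Rpl34, with −0.46 ± 0.25, were the lowest of the members above that mean in the authors' deposited table of 3-week males, and were not called.

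In 3-week females 5 of 69 tested members were called higher, where 8.29% of all tested genes were, and 2 lower, where 10.4% were. Those called higher were Rpl12 and Rpl36a, given above, and Rps12, Rps15a and Rpl3, with 0.35 ± 0.10, 0.32 ± 0.11 and 0.29 ± 0.09 in the authors' deposited table (adjusted p = 0.00648, 0.0252 and 0.00984). Of 79 members 43 were positive and the median was 0.02. The status Outlier held 8 members in females, where it held 4.58% of all genes with a fold change, and none in 3-week males, and their values ran both ways: Rps29, Rps28 and Rpl5 had 0.77, 0.72 and 0.60, and Rpl34, Rps10, Rpl35a, Rpl24 and Rpl13a −0.51, −0.30, −0.28, −0.26 and −0.12 in the authors' deposited table of 3-week females.

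Rpl3l had the lowest log2 fold change of any member in each comparison and was called lower in each. It encodes a paralogue of Rpl3 that replaces it in striated muscle, and its gene spans positions 24727820 to 24736143 of chromosome 17 (GRCm38, plus strand), with no annotated gene overlapping it. Its log2 fold change was −2.35 ± 0.44 (adjusted p = 4.28e-07) in the authors' deposited table of 3-month males, −1.40 ± 0.39 (adjusted p = 0.00359) in that of 3-week males and −1.18 ± 0.40 (adjusted p = 0.0221) in that of 3-week females. These are 0.197-fold, 0.378-fold and 0.441-fold ratios, on mean counts of only 45.3, 45.8 and 27.3. It was the only member called in more than 1 table. Beside it, Rpl3 had 1.04 ± 0.35 (Outlier), 0.21 ± 0.18 and 0.29 ± 0.09 in the same authors' deposited tables. Of 8 markers of skeletal and heart muscle, 2, 3 and 4 were tested in 3-month males, 3-week males and 3-week females. Only 1 was called, higher at 3 months, and their medians over the genes with a fold change were 0.72 (−0.21 against genes of like abundance), 0.46 and −0.15. No muscle marker was called lower in any table.

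Rps27l, a paralogue of Rps27 known in human cells as a p53 target, was the other member called lower. Its log2 fold change was −0.39 ± 0.11 in the authors' deposited table of 3-week females (adjusted p = 0.00516), 0.765-fold, and −0.24 without a call when libraries were scaled to equal totals. Here and below these totals are estimates rebuilt from the deposited values, as described with the scaling further on. Against genes of like abundance, and at a threshold of 0.01, Rps27l was still called lower in 3-week females. The value was −0.22 ± 0.14 in 3-week males and 0.05 ± 0.11 in 3-month males, both from the authors' deposited tables and not called. With libraries scaled to equal totals Rps27l was called higher in 3-month males, where 55.4% of all genes were. It was called higher there also against genes of like abundance, where 28.2% were. At 3 months it was the abundant member nearest to 0, with a 95% interval between −0.16 and 0.26 that excludes the median of the group. Rpl10l and Rpl39l, copies used mainly in the male germ line, were at or near 0: Rpl39l had mean counts of 0.26 and 0.46 in the authors' deposited tables of 3-week males and females, and 0 at 3 months.

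**Figure D4:**
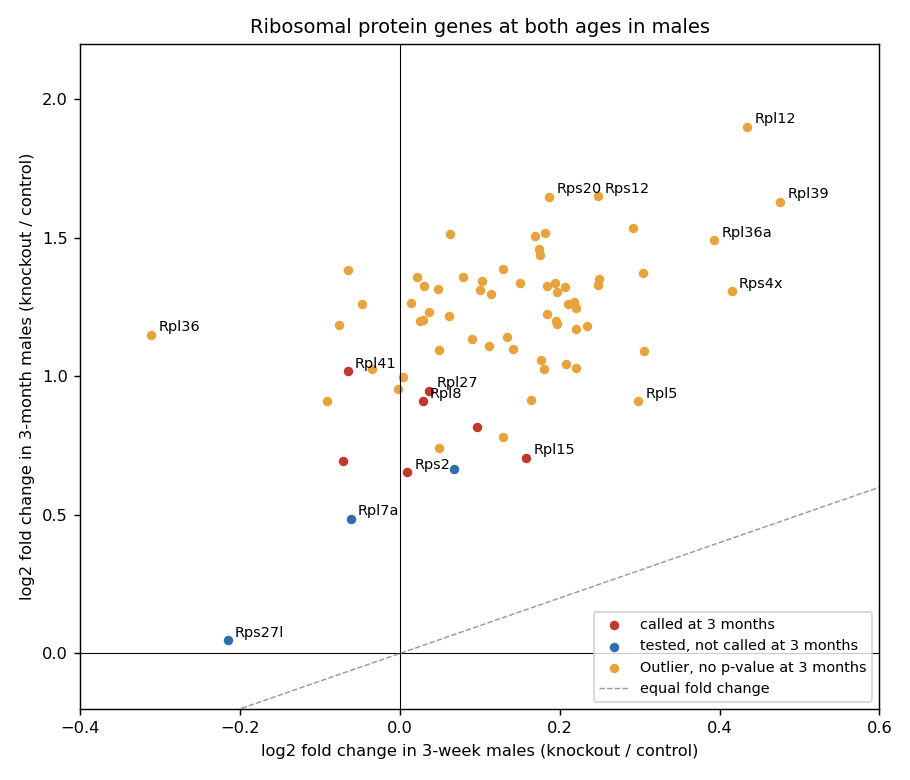
Log2 fold change (knockout over control) of the 73 ribosomal protein genes with a mean count of at least 100 in every table, in 3-month males (vertical) against 3-week males (horizontal), coloured by status at 3 months, with a dashed line of equal values. All points lie above the line, and Rps27l lies nearest to 0 on the vertical axis.

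The genotype effects of the 2 ages in males were compared by the difference of the authors' fold changes over the root of their summed squared SEs, with a normal p adjusted over all genes tested in both tables. These tables share no samples. Their fold changes were pulled toward 0, more strongly at 3 weeks (see How the data were processed), so the differences and their p-values are approximate. Of the 13 members tested in both, 3 had a greater effect at 3 months than at 3 weeks, where 16.8% of 12355 genes did, and none a smaller one, where 10.9% did. Rpl41 had 1.02 at 3 months and −0.07 at 3 weeks in the authors' deposited tables, a difference of 1.08 ± 0.38 (adjusted p = 0.0214). Rpl27 had 0.95 and 0.04 in the authors' deposited tables, a difference of 0.91 ± 0.36 (adjusted p = 0.0425), and Rpl8 had 0.91 and 0.03, a difference of 0.88 ± 0.36 (adjusted p = 0.0499). The difference was positive for 12 of the 13, all but Rpl3l, with a median of 0.60 against 0.04 over all genes. With Outlier genes tested too, 49 of 76 members had a greater effect at 3 months, where 18.6% of all genes did, 75 of 76 differences were positive and their median was 1.06. The difference of Rpl3l itself was −0.95 ± 0.59 and did not pass the threshold (adjusted p = 0.230). It did pass, as a smaller effect at 3 months, when each gene was set against genes of like abundance.

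Between the sexes at 3 weeks not one of 69 members was called different, nor was any of the 13737 genes tested (0%). At an unadjusted p under 0.05 the normal test of the difference found 0 members and 237 genes, 1.73%. That is fewer than a threshold of 0.05 lets through when no effect differs, so the test was conservative on fold changes pulled toward 0. The lack of calls therefore does not show that the sexes agree. The male minus female differences had a median of 0.09, 46 of 69 were positive, and their 95% intervals lay within −1.32 and 1.28. As a description without a test, the log2 fold changes of the 73 members abundant in all tables correlated at Pearson r = 0.60 (Spearman rho 0.60) between 3-week males and females, 0.52 (0.43) between 3-month and 3-week males, and 0.37 (0.30) between 3-month males and 3-week females. The corresponding values over 11241 genes were 0.84 (0.75), 0.66 (0.59) and 0.41 (0.32). Members within a table share its libraries and scaling, so they are not independent points.

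**Figure D5:**
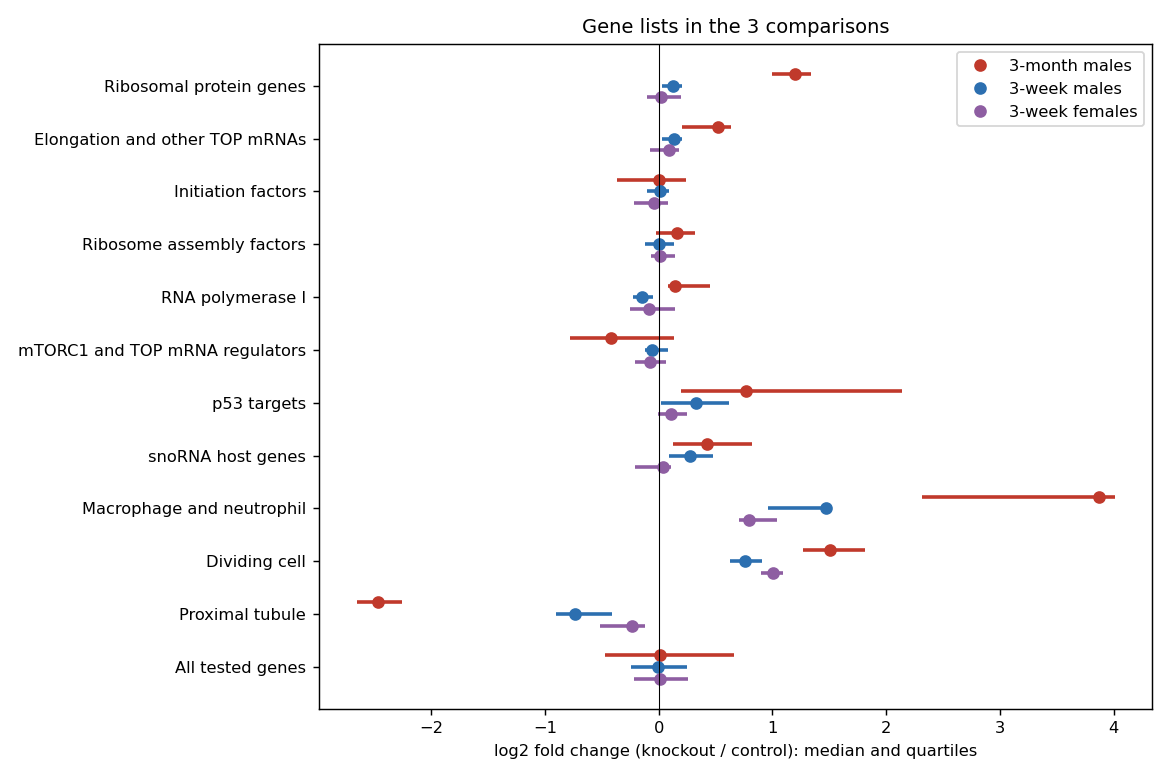
Median (point) and quartiles (bar) of the log2 fold change (knockout over control) of gene lists around the ribosome, of cell type markers and of all tested genes, with 1 colour per table. The ribosomal protein genes are at 1.20 at 3 months, above the list of elongation factors and other TOP mRNAs at 0.52 and assembly factors at 0.16.

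Other genes of the translation machinery had smaller medians at 3 months. Counts of this and the following lists at 3 months stand beside the 29.8% of all tested genes called higher and the 27.8% called lower, and the shares called higher in the elongation, initiation, assembly and RNA polymerase I lists all lay under 29.8%. List counts at 3 weeks stand beside 8.81% called higher and 8.52% lower in males, and 8.29% and 10.4% in females. Of ribosomal proteins and copies whose symbols the rule does not match, Gnb2l1, which encodes the ribosomal scaffold Rack1, was called higher at 3 months with 1.12 ± 0.31 in the authors' deposited table (adjusted p = 0.000669). Rps3a1 and Fau, whose product is processed to a small-subunit protein, had 1.26 ± 0.37 and 1.04 ± 0.39 there (Outlier), and the copy Rpl7l1 −0.12 ± 0.13. Elongation factors and other TOP mRNAs had a median of 0.52 at 3 months, with 4 called higher and 1 lower of 16 tested. Eef1g, a subunit of elongation factor 1, was among them with 0.64 ± 0.14 in the authors' deposited table (adjusted p = 3.18e-05), while Eef1a1 and Eef2 had 0.37 ± 0.29 and −0.02 ± 0.26 and were not called. The largest of this list, Vim, with 2.95 ± 0.22 in the authors' deposited table (adjusted p = 3.52e-38), encodes the intermediate filament vimentin of mesenchymal cells. Eif4b, an initiation factor with a TOP tract, was called lower there, at −0.57 ± 0.15 (adjusted p = 0.000481), but had −0.07 with libraries scaled to equal totals and 0.14 against genes of like abundance, neither of them called.

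Initiation factors had a median of 0.00 at 3 months with 4 higher and 7 lower of 27 tested, Eif5 falling most clearly at −0.98 ± 0.08 in the authors' deposited table (adjusted p = 1.17e-31). Ribosome assembly factors had 10 higher and 3 lower of 44 tested, with a median of 0.16: Nop58, a core protein of box C/D snoRNPs, had 0.87 ± 0.18 (adjusted p = 3.74e-06) and Utp20, of the small-subunit processome, −1.78 ± 0.22 (adjusted p = 2.16e-15) in the authors' deposited table. Genes of RNA polymerase I, which makes the ribosomal RNA, had 6 higher and none lower of 21, with a median of 0.14, and Taf1c had 0.88 ± 0.26 in the authors' deposited table (adjusted p = 0.00144). In 3-week males not one gene of these last 3 lists was called by the authors' p-values, against 2, 3 and 1 at an unadjusted p under 0.05. In 3-week females Eif2b1, Utp20, Sbds and Polr2f were called lower and no gene of the 3 lists higher, and with libraries scaled to equal totals not one of these 4 was called.

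Among mTORC1 components and other regulators of TOP mRNAs, 3 were called higher and 11 lower of 18 tested at 3 months, with a median of −0.42 that became 0.08 with libraries scaled to equal totals. Mtor, the kinase itself, had −2.01 ± 0.24 in the authors' deposited table (adjusted p = 1.10e-15), and Tsc1, a subunit of its inhibitor, −0.88 ± 0.13 (adjusted p = 5.49e-10). Myc, a transcription factor known to act on ribosome biogenesis genes, was called higher in all 3 tables, with 1.69 ± 0.15, 1.39 ± 0.23 and 0.95 ± 0.19 in the authors' deposited tables of 3-month males, 3-week males and 3-week females. Of p53 targets 7 were higher and 2 lower of 11 tested at 3 months, 4 higher of 11 in 3-week males and 1 higher of 14 in 3-week females. Mdm2, the ligase that the Rpl5 and Rpl11 particle binds, was called lower at 3 months at −0.36 ± 0.09 in the authors' deposited table (adjusted p = 8.09e-05), a value that turned to 0.13 and was not called with equal totals. Against genes of like abundance Mdm2 was still called lower, at −0.20. Phlda3, another target, had 3.28 ± 0.21 (adjusted p = 4.95e-54). Of snoRNA host genes, most of them noncoding RNAs with TOP tracts, Gas5 was called higher in both male tables, with 0.78 ± 0.30 at 3 months and 0.49 ± 0.15 at 3 weeks in the authors' deposited tables (adjusted p = 0.0181 and 0.00750).

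Markers of other cell types moved in the same tables. All 9 macrophage and neutrophil markers tested were called higher at 3 months, with a median log2 fold change of 3.87, and 6 of 9 in each 3-week table, with medians of 1.47 in males and 0.80 in females. Lymphocyte markers were higher in 6 of 7 tested cases at 3 months (median 1.82), fibroblast markers in 4 of 4 (median 3.29), and genes of dividing cells in 7 of 9 (median 1.50). Proximal tubule markers had a median of −2.47 at 3 months, with both tested markers called lower and the other 8 of status Outlier. In 3-week males 7 of 12 genes of dividing cells and 6 of 9 macrophage and neutrophil markers were higher, where 8.81% of all tested genes were. The members' median in that table was 0.13. The part of cell composition in the members' values was not tested.

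The size of the members' change depends on what the libraries are scaled to. Summed counts of knockout and control were not given, so they were rebuilt from the mean counts and the deposited fold changes. The rebuilding used the library numbers and the direction of the ratio as read above, and fold changes pulled toward 0, so it is an estimate. Setting these sums equal in place of the authors' size factors adds 0.49 to every log2 fold change at 3 months, 0.18 in 3-week males and 0.15 in 3-week females. It takes the share of higher among all called genes to 84.0%, 75.2% and 74.0%, against 51.7%, 50.8% and 44.2% as deposited. The members' median was then 1.70 in 3-month males, 0.31 in 3-week males and 0.17 in 3-week females. When each gene was set against genes of like abundance it was 1.80, 0.27 and 0.14 in the same order of tables, against 1.20, 0.13 and 0.02 as deposited.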

How the data were processed

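Polyadenylated RNA of 15 mouse kidneys was sequenced from stranded TruSeq libraries, per the labels' protocols. The submitters' processing notes name the build mm10, STAR, HOMER and DESeq2, and the sources used here state no versions, counting or strand settings. What was deposited are 3 comparison tables made by the authors. Per the file headers each holds a mean of normalized counts, a signal over the libraries, a log2 fold change with its SE, a p-value before and after adjustment, and a status. The deposited p-values equalled the normal p of fold change over SE for 100% of genes within 1%. The largest SEs were 1.10, 0.44 and 0.42 in 3-month males, 3-week males and 3-week females. The sources used here name no moderation of the fold changes, but the values show one. Genes with 1 read in 1 library had median log2 fold changes within −0.29 and 0.32 in 3-month males. In 3-week males these medians lay within −0.06 and 0.05, and in 3-week females within −0.05 and 0.07. Fold changes were thus pulled toward 0, more strongly at 3 weeks than at 3 months. This makes the tests of differences between the ages and between the sexes approximate.

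Groups came from the titles, and p-values measure only the spread between the libraries that entered a table. The steps of the low means fitted 5, 4 and 4 libraries where the labels give 6, 5 and 4, and which ones were left out is not known. The design foresaw a count model if values per library were given. None were, so the authors' p-values were used. After 27 symbols turned into dates were left out, 23393 genes remained. Own tests were normal tests with Benjamini-Hochberg adjustment (statsmodels 0.14.6, scipy 1.17.1) and were tested on simulated data. Gene positions come from GENCODE M21 (GRCm38), promoter positions from RefSeq (GRCm38.p6). The members and lists were chosen with earlier results of these data known. Genes named with values were the 6 highest and 6 lowest members by fold change per table at a mean of at least 100, those called in at least 2 tables, the P stalk, 5S particle, X-linked and restricted-copy members, those with differing effects, 7 with known roles, and 3 of smallest p per list. Members called by the authors were named as well, after their values were seen, as were Eef1a1, Eef2, Fau and Mdm2. Alternatives were scaling by totals rebuilt from the deposited values, recentring on all genes or on genes of like abundance in 20 bins, no filter, Outlier genes tested, a threshold of 0.01 and Benjamini-Yekutieli adjustment.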

Additional observations from a re-analysis of the deposited data

Results flagged for a closer look

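The genotype effect differed between the ages in males for 3 members by the test of the difference itself. Rpl41, whose log2 fold change was 1.02 at 3 months and −0.07 at 3 weeks in the authors' deposited tables, differed by 1.08 ± 0.38 (SE, adjusted p = 0.0214). Rpl27 differed by 0.91 ± 0.36 (adjusted p = 0.0425) and Rpl8 by 0.88 ± 0.36 (adjusted p = 0.0499). Such a difference is frequent among all genes of these tables, 16.8% greater and 10.9% smaller at 3 months. The stronger pull of fold changes toward 0 at 3 weeks makes these differences approximate. Rpl41 and Rpl27 passed also with the median of tested genes subtracted, and no member passed at a threshold of 0.01 or with Benjamini-Yekutieli adjustment.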

How the results depend on the processing

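No paired analysis was possible because the labels give each sample a number of its own and the tables hold no value per library, so that no library could be left out in turn either. Scaling to equal totals gave 7 of 77 members higher in 3-week males (1 as deposited), where 14.5% of all genes were, and 21 of 69 in 3-week females (5), where 17.3% were, with 1 lower in females (2). It gave a median of 1.70 in 3-month males (1.20) and 10 of 13 members with differing effects between the ages (3), where 34.6% of all genes differed. The median of like-abundance genes as centre gave 6 higher in 3-week males, where 7.73% of all genes were, and 16 in 3-week females, where 8.04% were. It gave a median of 1.80 at 3 months and 10 members differing between the ages, where 23.1% of all genes did. Of these 10, 9 had a greater effect at 3 months and 1, Rpl3l, a smaller one, whereas all 10 under equal totals were greater. No filter on low counts or status gave 70 of 77 members higher at 3 months (7 of 13 as deposited), where 26.2% of all genes were. It gave 47 of 77 differing between the ages, where 25.3% did. Testing Outlier genes gave 70 of 76 higher, where 30.4% were, and 49 of 76 differing, where 31.0% did. A threshold of 0.01 left 0 higher in 3-week males, where 5.89% of all genes were, and 1 lower in 3-week females, where 6.92% were. At 3 months it left 4 of 13 higher, where 25.3% were, and 0 differing, where 17.7% did. Benjamini-Yekutieli adjustment left 0 higher in 3-week males, where 5.07% were. It left 0 higher and 0 lower in 3-week females, where 4.38% and 5.68% were. At 3 months it left 3 of 13 higher, where 23.7% were, and 0 differing, where 14.9% did. With members at a mean of at least 100 alone, 0 were lower in 3-week males, 1 in 3-week females and 0 at 3 months, since Rpl3l lies under that mean. The construction of the filters shows why those counts changed, and the cause of the other changes was not tested. Eif4b at 3 months reversed to 0.14 with like-abundance genes as centre. Of the values of the main comparisons under these alternatives, 57 were classed as the same as deposited and 25 as moved. The low mean counts of Rpl26, Rpl30, Rps27, Rpl34 and Rpl3l limit what can be said of these 5 genes.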
